A study of Mus with 15 samples.

Results

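Transcripts of 9 genes that build the contractile apparatus and cytoskeleton of vascular smooth muscle were followed in the abdominal aorta of 15 male C57BL/6 wild-type mice. The 9 transcripts, with 1 main transcript taken per gene by its identifier, were Acta2 (ENSMUST00000039631), Tagln (ENSMUST00000034590), Cnn1 (ENSMUST00000001384), Lmod1 (ENSMUST00000059352), Smtn (ENSMUST00000020718), Myh11 (ENSMUST00000090287), Mylk (ENSMUST00000023538), Des (ENSMUST00000027409) and Vim (ENSMUST00000028062). They are 9 of 108027 Ensembl transcripts listed for all mice, and all 9 were found in every mouse. All mice were 8 to 10 weeks old and were treated for 14 days. The 5 Control mice received saline, the 5 AngII mice received angiotensin II at 500 ng/kg/min from an osmotic pump, and the 5 AngII + QDG mice received the same infusion together with Qingda granule (QDG), a Chinese herbal preparation, at 1.145 g/kg/day by the intragastric route. Control and AngII mice were given water by that route, and every group was genetically unmodified. The comparison of AngII with Control asks how the pressor peptide changes the vessel wall, and the comparison of AngII + QDG with AngII asks what the granule changes in infused mice.

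Smooth muscle shortens when calcium-loaded calmodulin activates myosin light chain kinase, the product of Mylk, which phosphorylates the regulatory light chain so that smooth muscle myosin heavy chain (Myh11) can pull on filaments of alpha-smooth muscle actin (Acta2). Transgelin (Tagln, also called SM22-alpha), calponin (Cnn1) and smoothelin (Smtn) bind those actin filaments, and leiomodin (Lmod1) promotes their assembly. Desmin (Des) and vimentin (Vim) form intermediate filaments, the desmin kind being typical of muscle and the vimentin kind being shared with fibroblasts, endothelium and leukocytes. Many of the contractile genes are driven by serum response factor with its coactivator myocardin, and their expression is known to decline when smooth muscle cells leave the contractile state.

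Expression was measured as FPKM, fragments scaled to transcript length and to the library's mapped fragments, so that levels of different transcripts can be compared per length. The sum of FPKM over a mouse's list lay between 454587 and 547311, and the 9 transcripts together made up 0.485 to 1.20% of it, with a median of 0.599%. Absolute read depth is unknown from FPKM. The AngII + QDG files rest on another transcript list (125443 entries) than the Control and AngII files (126719 entries), so that list and treatment cannot be told apart in any comparison with AngII + QDG mice. The software divides the reads of a gene among its transcripts, hence a level here is that of 1 transcript and not of the gene. Other transcripts of these genes were not analysed here. RefSeq lists 5 curated mRNAs for Smtn and 2 for Myh11, against 1 for each of the other 7 genes, and reads of Acta2 may be shared with near-identical actin genes. In whole tissue, fewer smooth muscle cells and less RNA per cell cannot be told apart. Each p-value of a group comparison sets a difference in means against the spread between mice. Those of relations between transcripts come from permuting values over mice.

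In RefSeq coordinates of the GRCm38.p6 build, the thin filament genes lie at chr19:34240336-34255585 (Acta2), chr9:45929628-45936058 (Tagln), chr9:22099221-22109221 (Cnn1), chr1:135324813-135368065 (Lmod1) and chr11:3517522-3539292 (Smtn). The motor and kinase genes lie at chr16:14194527-14292188 (Myh11) and chr16:34745199-35002436 (Mylk), and the intermediate filament genes at chr1:75360292-75368579 (Des) and chr2:13574311-13582826 (Vim). These intervals are those of whole genes.

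Smooth muscle transcripts were detected in every library, although their levels cannot tell the abdominal aorta from other smooth muscle tissue. Acta2 was among the leading transcripts of the aorta, with a median of 1444 FPKM over the 15 mice and a rank between 12 and 33 among the shared Ensembl transcripts. Tagln followed at a median of 950.1 FPKM (rank 16 to 56), then Vim at 290 FPKM (rank 72 to 1617) and Cnn1 at 127 FPKM (rank 184 to 644). Des (median 74.6 FPKM), Lmod1 (50.3 FPKM) and Mylk (49.7 FPKM) formed a middle tier. The Myh11 transcript had a median of 22.3 FPKM, and the Smtn transcript was the lowest at 3.44 FPKM, with 4 of 15 mice below 1 FPKM. The order of neighbours held in all 15 mice for Acta2 over Tagln, Tagln over Vim and Myh11 over Smtn. It held in 14 mice for Des over Lmod1 and for Mylk over Myh11, and in 13 for Vim over Cnn1 and for Cnn1 over Des. Lmod1 exceeded Mylk in only 6 mice, so these neighbours had no settled order. Tagln and Vim were the only neighbours whose ranges over the 15 mice did not overlap.

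**Figure D1:**
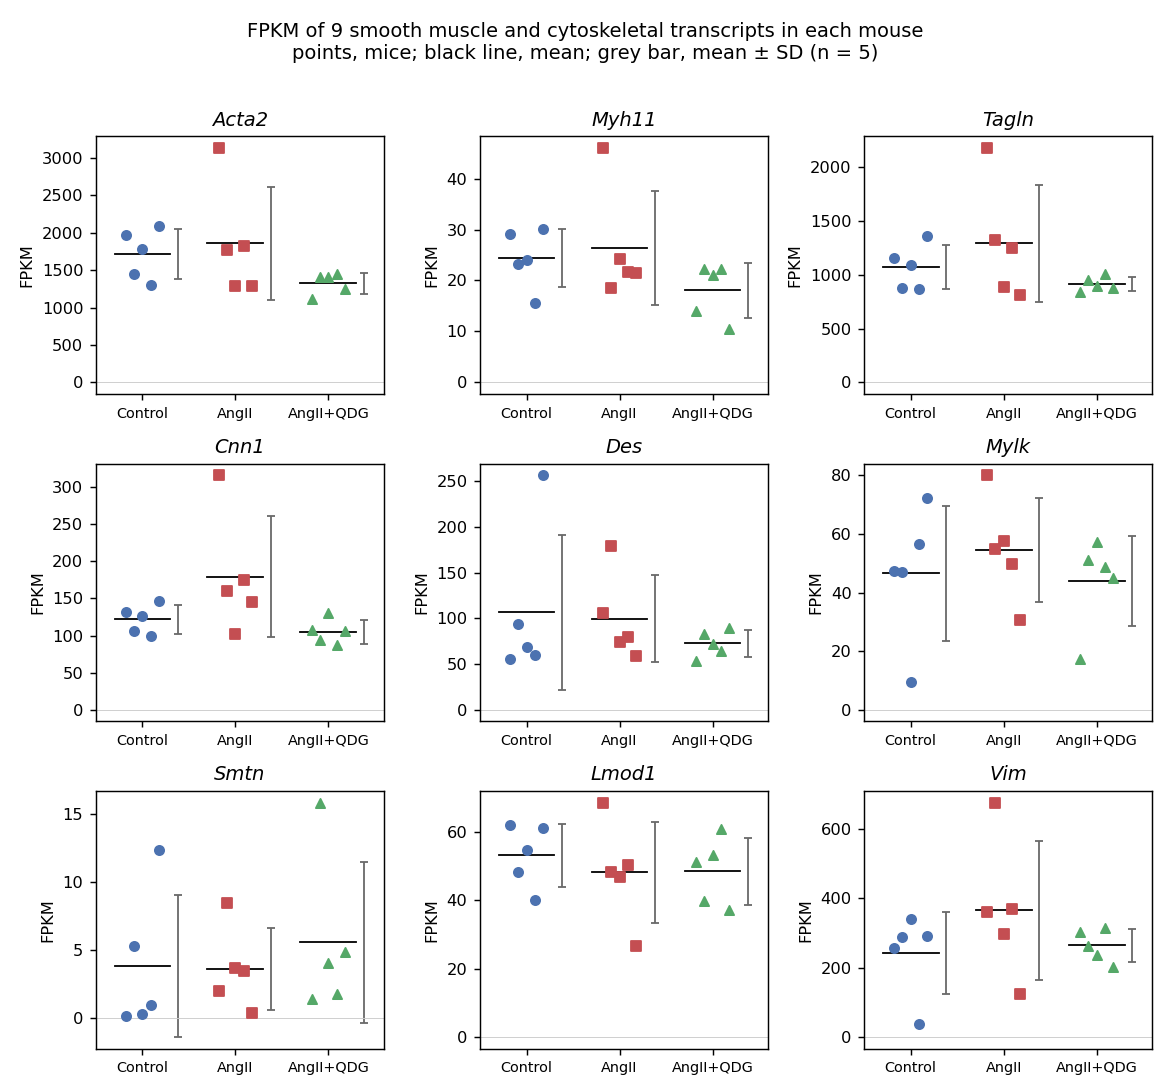
FPKM of each of the 9 transcripts (linear axes) in every mouse, grouped as Control, AngII and AngII + QDG, with 1 point per mouse, a black line at each group's mean and a grey bar of the mean ± SD. The groups overlap for all 9 transcripts, and AngII mouse 3988 stands highest of the 15 mice for Acta2, Tagln, Cnn1, Myh11, Mylk and Lmod1.

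Values of single mice are given here in the order 3996, 4000, 4086, 3971 and 3994 for Control, 3988, 3989, 3986, 3987 and 4048 for AngII, and 3981, 3982, 3983, 3984 and 3985 for AngII + QDG. Acta2, the actin of the contractile filament, measured 1966, 1446, 1781, 1300.3 and 2088 FPKM in Control mice. It measured 3128, 1769, 1281, 1816 and 1293 FPKM in AngII mice, and 1113, 1404, 1414, 1444 and 1251 FPKM in AngII + QDG mice. The groups overlapped, with mouse 3988 far above every other animal the AngII + QDG mice within the lower part of the Control range (3 mice) or just under it (3981 and 3985). The group means were 1716 ± 336 (Control), 1857 ± 754 (AngII) and 1325 ± 141 FPKM (AngII + QDG; mean ± SD, n = 5 each).

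Tagln, whose product crosslinks actin filaments, measured 1153, 879, 1087, 871 and 1359 FPKM in Control mice. In AngII mice it measured 2174, 1326, 890.1, 1248 and 816 FPKM, and in AngII + QDG mice 842, 950.1, 894, 1002 and 875 FPKM. High and low animals were largely those of Acta2, with mice 3988 and 3994 leading their groups for both transcripts. The spread was widest in AngII mice (1291 ± 541 FPKM, SD, n = 5), against 204 FPKM in Control and 63.4 FPKM in AngII + QDG mice.

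Cnn1, which encodes the calponin that binds actin and inhibits the myosin ATPase, measured 132, 106, 127, 98.7 and 147 FPKM in Control mice. In AngII mice it measured 316, 159, 102, 175 and 145 FPKM, and in AngII + QDG mice 108, 93.4, 129.8, 87.5 and 106 FPKM. Of the AngII mice, 3988, 3989 and 3987 were above all Control mice, while 3986 and 4048 lay within the Control range. All 5 AngII + QDG values lay below those of 4 AngII mice, and only that of mouse 3986 fell among them. The group means were 122 ± 19.8, 179 ± 80.9 and 105 ± 16.3 FPKM in Control, AngII and AngII + QDG mice (SD, n = 5 each).

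Lmod1, the actin filament nucleator of smooth muscle, measured 62.0, 48.3, 54.6, 40.0 and 61.1 FPKM in Control mice, 68.5, 48.2, 46.9, 50.3 and 26.8 FPKM in AngII mice, and 51.0, 39.9, 53.3, 60.7 and 37.1 FPKM in AngII + QDG mice. It had the narrowest range of the 9 transcripts, the highest mouse being 2.56-fold above the lowest, and the group means of 53.2 ± 9.23, 48.1 ± 14.8 and 48.4 ± 9.79 FPKM lay within 1 SD of each other. Smtn, the actin-binding marker of contractile cells, had the widest range of the 9, the highest mouse being 121-fold above the lowest. It measured 0.131, 5.29, 0.311, 0.950 and 12.3 FPKM in Control mice, 2.0, 8.48, 3.71, 3.44 and 0.351 FPKM in AngII mice, and 1.40, 15.8, 4.07, 1.73 and 4.82 FPKM in AngII + QDG mice. Each group held both low and high animals, so that the SD of Smtn exceeded its mean in Control (3.80 ± 5.22 FPKM) and in AngII + QDG mice (5.57 ± 5.92 FPKM).

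Myh11, the motor of the thick filament and the most specific marker of the lineage among these genes, measured 29.1, 23.3, 24.0, 15.7 and 30.1 FPKM in Control mice. It measured 46.0, 18.5, 24.1, 21.6 and 21.5 FPKM in AngII mice and 14.0, 22.4, 21.0, 22.3 and 10.5 FPKM in AngII + QDG mice. Mouse 3988 was again the highest animal, and without it the AngII values lay inside the Control range. The lowest values were those of AngII + QDG mice 3985 and 3981, the other 3 mice of that group lying among the Control mice. Group means were 24.4 ± 5.76, 26.3 ± 11.2 and 18.1 ± 5.44 FPKM (SD, n = 5 each).

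Mylk, the kinase that couples calcium to contraction, measured 47.4, 47.2, 9.44, 56.7 and 72.2 FPKM in Control mice. It measured 80.0, 54.8, 57.5, 49.7 and 30.8 FPKM in AngII mice and 17.4, 51.2, 57.4, 48.7 and 45.0 FPKM in AngII + QDG mice. The low value of Control mouse 4086 came with an Acta2 and a Tagln near the Control means, whereas AngII + QDG mouse 3981, also low, had the lowest Acta2 of all 15 mice. The other 13 mice lay between 30.8 and 80.0 FPKM with no separation of the groups.

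Des, the muscle intermediate filament, measured 55.7, 93.7, 69.0, 59.4 and 256 FPKM in Control mice. It measured 106, 179, 74.6, 79.3 and 58.7 FPKM in AngII mice and 53.1, 83.0, 72.5, 64.8 and 89.5 FPKM in AngII + QDG mice. Control mouse 3994 alone carried the Control mean to 107 ± 84.9 FPKM, while the AngII + QDG mice stayed close together (72.6 ± 14.4 FPKM, SD, n = 5 each).

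Vim, the intermediate filament of mesenchymal cells in general, measured 257, 288, 341, 37.6 and 289.8 FPKM in Control mice. It measured 359, 674, 298, 368 and 123 FPKM in AngII mice and 304, 263, 236, 315 and 201 FPKM in AngII + QDG mice. Of the AngII mice, 3988, 3989 and 3987 exceeded every Control mouse and the other 2 did not. Control mouse 3971 was the lowest animal of all, and its Acta2 (1300.3 FPKM) was also the lowest of the Control mice. Group means were 243 ± 119, 364 ± 199 and 264 ± 47.5 FPKM (SD, n = 5 each).

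The transcripts differed in how much they varied between mice of 1 group. The SD of log2(FPKM + 1), pooled within the 3 groups, was 0.36 for Acta2, 0.36 for Tagln, 0.36 for Lmod1, 0.39 for Cnn1 and 0.44 for Myh11. These lay near the middle of the 5716 transcripts with a mean of at least 10 FPKM, whose median SD was 0.34, at percentiles from 53.4 (Lmod1) to 63.8 (Myh11). Des (0.65), Mylk (0.80), Vim (0.93) and Smtn (1.25) varied more, at percentiles 76.7, 82.8, 85.8 and 91.0 of the same transcripts, although Smtn itself had a mean under 10 FPKM. Within the Control group alone, Des and Vim differed several-fold between mice whose Acta2 lay between 1300.3 and 2088 FPKM. Each of these ranges rested on 1 mouse, 3994 for Des and 3971 for Vim. The other Control mice had 55.7 to 93.7 FPKM of Des and 257 to 341 FPKM of Vim.

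AngII mouse 3988 was high for the contractile set as a whole. It had the highest value of all 15 mice for 6 of the 9 transcripts (Acta2, Tagln, Cnn1, Lmod1, Myh11 and Mylk) and lay above the median of the 15 mice for 8, Smtn being the exception. The 9 transcripts made up 1.20% of its summed FPKM. Differences that moved most without this mouse are given with and without it.

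**Figure D2:**
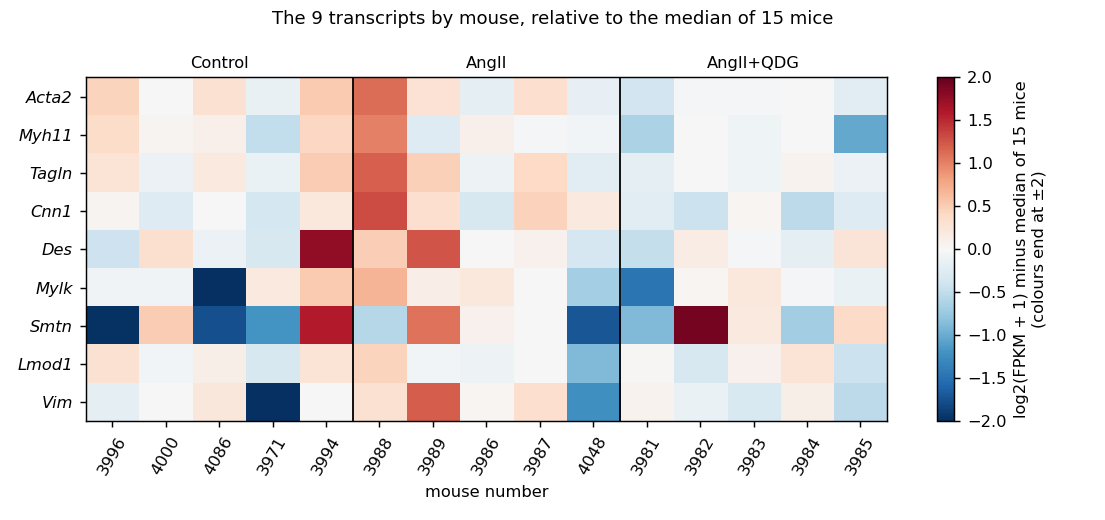
Log2 difference of each of the 9 transcripts (rows) from its median over the 15 mice, for every mouse (columns, ordered by group), on the log2(FPKM + 1) scale. The column of AngII mouse 3988 is above the median for 8 of 9 transcripts, whereas the extreme cells of Smtn, Mylk and Vim fall in different mice (colours end at 2 log2 units either way).

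For AngII vs. Control, no transcript of the 9 differed by the tests used. Differences are given on the log2(FPKM + 1) scale, and they understate the change of low transcripts. They come from limma, fitted to the transcripts with at least 1 FPKM in at least 5 of the 10 mice. Of the 9 transcripts, 8 had a positive and 1 (Lmod1) a negative difference in mean log2(FPKM + 1), with a median of 0.20 against 0.02 over all 27327 transcripts tested. None reached a fold of 2 with an unadjusted p below 0.05, which 1.50% of all transcripts did, and none passed at a Benjamini-Hochberg adjusted p below 0.05, which 0.00732% did. At an unadjusted p below 0.05 the count was also 0 of 9, against 4.75% of all transcripts, and none was free of overlap between the groups, against 0.732%. The adjusted p of the 9 from limma ran from 0.995 to 1.00.

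None of the differences passed a test. Cnn1 had a log2 difference of 0.47 ± 0.26 (SE; 1.38-fold, 95% interval 0.919 to 2.08), with an exact permutation p of 0.127 (2-sided, 5 against 5 mice, smallest possible p 0.00794), and the difference was 0.24 without mouse 3988 and between 0.24 and 0.64 when any 1 mouse was left out, the highest without AngII mouse 3986 (exact permutation p = 0.0159, unadjusted). Vim had a difference of 0.71 ± 0.63 (1.63-fold, 0.613 to 4.34), with an exact permutation p of 0.349, and it rested on Control mouse 3971, without which it was 0.12. It was 1.05 without AngII mouse 4048 and 0.44 without AngII mouse 3989. The estimates of Acta2, Myh11 and Tagln were smaller, with Acta2 at 0.06 (1.04-fold, 0.695 to 1.55), Myh11 at 0.06 (1.04-fold, 0.701 to 1.55) and Tagln at 0.20 (1.15-fold, 0.762 to 1.73). All 3 turned negative without mouse 3988, at -0.15, -0.15 and -0.01. Mylk stood at 0.41 (1.33-fold, 0.625 to 2.82), at 0.26 without mouse 3988 and at -0.075 without Control mouse 4086. Lmod1 stood at -0.18 (0.881-fold, 0.618 to 1.26), at -0.32 without mouse 3988 and at 0.0079 without AngII mouse 4048. Des stood at 0.05 (1.04-fold, 0.527 to 2.03) and Smtn at 0.35 (1.27-fold, 0.402 to 4.02). The group means of FPKM itself went the other way for Des (99.4 in AngII against 107 in Control mice) and Smtn (3.60 against 3.80), so that no direction can be read for either. The intervals were widest for Smtn and Vim, the transcripts that varied most between mice.

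**Figure D3:**
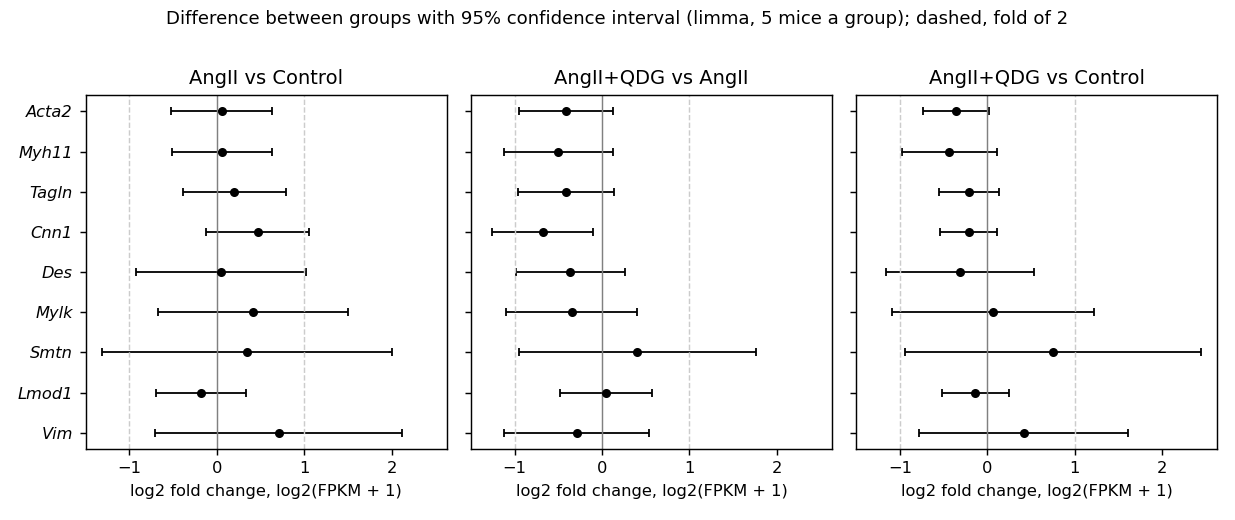
Log2 difference of each of the 9 transcripts from limma on log2(FPKM + 1), with its 95% interval, in the 3 comparisons. In AngII + QDG vs. AngII the interval of Cnn1 (fold 0.418 to 0.932) is the 1 interval of the 27 that leaves out no change.

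For AngII + QDG vs. AngII, 7 of the 9 transcripts had lower and 2 (Smtn and Lmod1) higher values in mice given QDG, and only Cnn1 passed a test, and only without adjustment. The median difference of the 9 was -0.36 against -0.00 over all 21081 transcripts tested. None met the fold of 2 with an unadjusted p below 0.05, against 3.53% of all transcripts, and none passed at an adjusted p below 0.05, against 1.73%. Cnn1 alone had an unadjusted p below 0.05, 1 of 9 against 7.86% of all transcripts, so that this count does not stand out from the background. None of the 9 was free of overlap between the groups, against 2.86%.

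Cnn1 was 0.624-fold of its AngII level in AngII + QDG mice (95% interval 0.418 to 0.932, log2 difference -0.68 ± 0.26), with a limma p of 0.0255 and an adjusted p of 0.467. The exact permutation p was 0.0317. Without mouse 3988 the log2 difference was -0.45, with a limma p of 0.0363 and an exact permutation p of 0.0556. The unadjusted p from limma rose above 0.05 without AngII + QDG mouse 3982 (limma, 0.0523) or 3984 (limma, 0.0565), the differences then being -0.64 and -0.62. The exact permutation p was between 0.0556 and 0.0714 when mouse 3982, 3984, 3988, 3989 or 3987 was left out. Without AngII mouse 3986 the difference was -0.86 (exact permutation p = 0.00794) and the Cnn1 values of the groups did not overlap. Acta2, Tagln and Myh11 also had lower values in mice given QDG without passing. Acta2 stood at -0.41 (0.752-fold, 0.518 to 1.09, exact permutation p = 0.103), Tagln at -0.41 (0.752-fold, 0.515 to 1.10, exact permutation p = 0.151) and Myh11 at -0.50 (0.708-fold, 0.460 to 1.09, exact permutation p = 0.183). Without mouse 3988 these 3 were at -0.20, -0.20 and -0.28, nearer to 0 each time. Leaving out AngII mouse 3986 or 4048 moved all 3 the other way. Acta2 was at -0.53 without 3986 (exact permutation p = 0.0476) and Tagln at -0.55 without 4048 (exact permutation p = 0.0317), both unadjusted. Without 3989 or 3987, Acta2 (-0.409 and -0.399) and Tagln (-0.379 and -0.401) moved slightly nearer to 0, and Myh11 (-0.60 and -0.55) moved away from it. Mylk stood at -0.35, Des at -0.36 and Vim at -0.29, with exact permutation p-values of 0.405, 0.294 and 0.532, and Lmod1 at 0.04 and Smtn at 0.40, with 0.857 and 0.548. Single mice moved these values. Mylk was at -0.050 without mouse 3981, at -0.19 without 3988 and at -0.53 without 4048. Des was at -0.12 without mouse 3989, and Vim at -0.019 without 3989 and at -0.63 without 4048 (exact permutation p = 0.0317, unadjusted). Smtn was at -0.031 without mouse 3982, and Lmod1 at -0.15 without 4048. The limma adjusted p was at least 0.790 for all transcripts but Cnn1.

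Mice given QDG can also be set against Control mice, which asks whether treated vessels differ from vessels that never saw AngII. For AngII + QDG vs. Control, 6 of the 9 differences were negative and 3 (Mylk, Smtn and Vim) positive, with a median of -0.21 against 0.02 over all 21250 transcripts tested. None met the fold of 2 with an unadjusted p below 0.05 (3.64% of all transcripts), an adjusted p below 0.05 (1.81%) or an unadjusted p below 0.05 alone (8.98%). None was free of overlap between the groups (3.24%). Acta2 came nearest, at 0.781-fold (95% interval 0.600 to 1.02, log2 difference -0.36 ± 0.17), with a limma p of 0.0631, an adjusted p of 0.611 and an exact permutation p of 0.0556. Its unadjusted value from limma was below 0.05 without Control mouse 3971 (0.0248) or 4000 (0.0496). Without mouse 3971 the values of Acta2 (exact permutation p = 0.00794) and Myh11 (exact permutation p = 0.0397) no longer overlapped between the groups, the log2 differences being -0.45 and -0.58. The interval of Tagln was 0.683 to 1.09 and that of Cnn1 0.687 to 1.08, around 0.864-fold and 0.862-fold. Myh11 stood at 0.738-fold (0.507 to 1.08, exact permutation p = 0.119), Lmod1 at 0.908-fold (0.697 to 1.18) and Des at 0.806-fold (0.448 to 1.45). For Mylk (1.05-fold, 0.470 to 2.33), Smtn (1.68-fold, 0.520 to 5.44) and Vim (1.34-fold, 0.584 to 3.05) the intervals were the widest of the 9. On the log2 scale Smtn stood at 0.32 without AngII + QDG mouse 3982 and at 1.29 without Control mouse 3994. Vim stood at -0.17 without Control mouse 3971 and Mylk at -0.42 without Control mouse 4086, while Des stood at 0.068 without Control mouse 3994. The mean FPKM of Mylk was lower in AngII + QDG (44.0) than in Control mice (46.6), against the sign of its log2 difference. Each group enters 2 of the 3 comparisons, so the 3 sets of values are not independent.

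Ratios within a mouse were compared next, since the ratio of 2 transcripts in 1 library does not move with a scaling of that library. Cnn1 measured 6.72, 7.30, 7.11, 7.59 and 7.04% of Acta2 in Control mice, a narrow band. In AngII mice it measured 10.1, 9.01, 7.94, 9.66 and 11.2% of Acta2, and all 5 lay above every Control mouse. Over all transcripts tested, 0.329% had a ratio to Acta2 that did not overlap between these groups. In AngII + QDG mice it measured 9.69, 6.65, 9.18, 6.06 and 8.49% of Acta2, below the Control range in 2 mice and above it in 3. The means were 7.15 ± 0.322, 9.59 ± 1.23 and 8.01 ± 1.59% (SD, n = 5 each).

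The log2 ratio of Cnn1 to Acta2 was 0.41 higher in AngII than in Control mice. Its exact permutation p was 0.00794, the smallest that 5 against 5 mice can give. After Benjamini-Hochberg adjustment over the 12 ratio tests it was 0.0952, so that it did not pass the correction. A single ratio at that smallest p could not pass this correction whatever its size, so nothing is read from its not passing. Leaving out any 1 mouse kept the difference between 0.35 and 0.48, with an exact permutation p of at most 0.0159. With Tagln in place of Acta2 as the denominator, a choice made after seeing the data, the difference was 0.27, with 4 of 5 AngII mice above all Control mice and an exact permutation p of 0.0476 without adjustment. For AngII + QDG vs. AngII the log2 ratio differed by -0.27 (exact permutation p = 0.143, adjusted 0.571) and for AngII + QDG vs. Control by 0.14 (exact permutation p = 0.310, adjusted 0.876). Leaving out 1 mouse gave -0.35 (without 3981) to -0.18 (without 3984) in the former and 0.067 (without 3981) to 0.24 (without 3984) in the latter. The groups overlapped in both comparisons of all 5 mice, while 2.99% and 4.42% of all transcripts had a ratio to Acta2 without overlap.

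**Figure D4:**
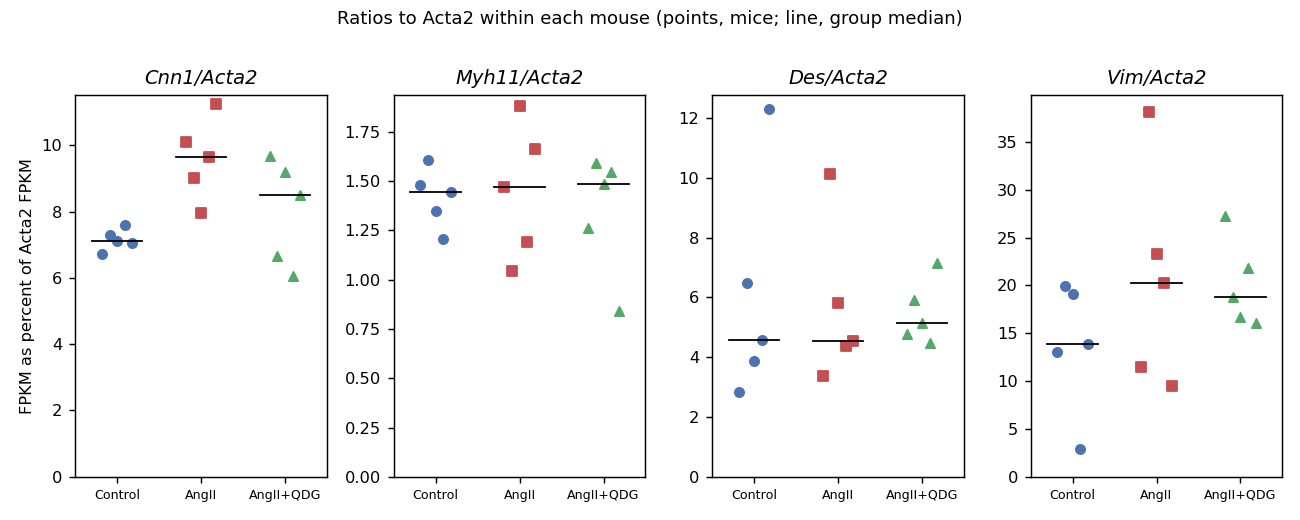
Ratio of Cnn1, Myh11, Des and Vim to Acta2 within each mouse, in percent (linear axes from 0), by group, with 1 point per mouse and a line at each group's median. For Cnn1 the 5 AngII mice (7.94 to 11.2%) lie above the 5 Control mice (6.72 to 7.59%), and for the other ratios the groups overlap.

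The other ratios did not separate the groups. Myh11 stayed between 0.842 and 1.88% of Acta2 over the 15 mice, with group means of 1.42 ± 0.151, 1.45 ± 0.342 and 1.35 ± 0.309% in Control, AngII and AngII + QDG mice (exact permutation p from 0.667 to 0.952 in the 3 comparisons). The proportion of the Myh11 to the Acta2 transcript thus differed between the groups by less than it did between mice. Des ranged from 2.84 to 12.3% of Acta2, with means of 6.01 ± 3.75, 5.64 ± 2.64 and 5.49 ± 1.07% (exact permutation p from 0.873 to 0.992). Vim ranged from 2.89 to 38.1% of Acta2. Its log2 ratio was 0.66 higher in AngII than in Control mice (exact permutation p = 0.365) and 0.78 higher in AngII + QDG than in Control mice (exact permutation p = 0.111, adjusted 0.571), and without Control mouse 3971, whose Vim was low, these were 0.16 and 0.28. The means of the Vim ratio were 13.8 ± 6.81, 20.5 ± 11.4 and 20.1 ± 4.60% in Control, AngII and AngII + QDG mice.

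Between mice, Tagln, Cnn1, Myh11 and Lmod1 varied with Acta2. Over the 15 mice, log2(FPKM + 1) of Tagln followed that of Acta2 with a Pearson r of 0.96 (permutation p = 1e-05, the smallest that 100000 resamples can give, adjusted p = 8e-05 over 8 relations) and a Spearman rho of 0.89 (permutation p = 3e-05). Cnn1 (r = 0.83, rho = 0.60, adjusted permutation p = 0.00221 and 0.0413), Myh11 (r = 0.81, rho = 0.70, adjusted permutation p = 0.00148 and 0.0112) and Lmod1 (r = 0.64, rho = 0.73, adjusted permutation p = 0.0224 and 0.0104) also passed. Des (r = 0.48, rho = 0.43), Vim (r = 0.39, rho = 0.48), Mylk (r = 0.32, rho = 0.36) and Smtn (r = 0.02, rho = 0.01) did not, with adjusted permutation p-values for r of 0.121, 0.180, 0.257 and 0.951. Over deviations from the group means, pooled over the 3 groups, r was 0.97 (Tagln), 0.85 (Cnn1), 0.75 (Myh11) and 0.74 (Lmod1). The matching rho was 0.91, 0.73, 0.78 and 0.80, all with an adjusted permutation p under 0.05. No r was computed in a single group, and Acta2 spread most in AngII mice. Its log2 SD was 0.52 there, 0.29 in Control and 0.16 in AngII + QDG mice. Over the 10 Control and AngII mice, which share a transcript list, r was 0.97, 0.86, 0.81 and 0.79, each passing, and rho was 0.84, 0.68, 0.64 and 0.93, with Cnn1 and Myh11 no longer passing by rho (adjusted permutation p = 0.0932 and 0.109).

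Leaving out mice with extreme Acta2 lowered the r of these relations. Without the 2 mice farthest from the median of Acta2 (3988 and 3994), r was 0.89 for Tagln (adjusted permutation p = 0.00056, n = 13). For Myh11 it was 0.59 and for Cnn1 0.58 (adjusted permutation p = 0.0974 each), and for Lmod1 0.50 (adjusted permutation p = 0.167), so that these 3 relations no longer passed the adjustment, at a smaller n and over a narrower range of Acta2 (unadjusted permutation p = 0.0297, 0.0365 and 0.0836). Without mouse 3988 alone, a choice made after seeing the data, r was 0.92 for Tagln, 0.67 for Myh11 and 0.62 for Cnn1, which passed, and 0.57 for Lmod1, which did not (adjusted permutation p = 0.064). By rho, Cnn1 (0.50, adjusted permutation p = 0.141) did not pass without that mouse and Lmod1 (0.67, adjusted permutation p = 0.0438) did. Transcripts of 1 library share its scaling and its tissue makeup, and the part of either in these relations was not tested.

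**Figure D5:**
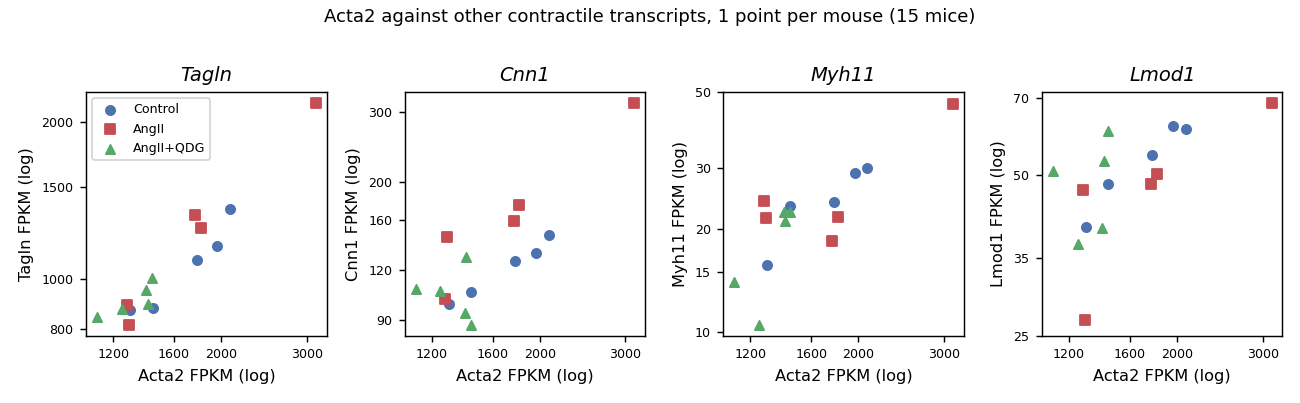
FPKM of Tagln, Cnn1, Myh11 and Lmod1 against FPKM of Acta2 (both log axes) in the 15 mice, coloured by group. Tagln follows Acta2 most closely (r = 0.96), and AngII mouse 3988 is the point farthest to the right in each panel.

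Among all 36 pairs of the 9 transcripts, deviations from the group means were positively correlated in 34, with a median r of 0.43 and a range from -0.13 to 0.97. Without mouse 3988, 34 pairs were again positive, but the group means subtracted still included that mouse, so its influence was not removed. A pair singled out after its value was seen was Des with Smtn (r = 0.83), both of which were high in Control mouse 3994 and AngII mouse 3989, whereas the lowest r was that of Mylk with Vim (r = -0.13). These r are descriptions over 15 mice.

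The transcripts outside the 9 whose level was most like the mean of the 8 contractile members (all but Vim) were searched among 11937 shared Ensembl transcripts with at least 1 FPKM in all 15 mice. The closest was ENSMUST00000071697 (r = 0.89, 2.26 to 11.8 FPKM), followed by ENSMUST00000108110 (r = 0.87, 15.4 to 64.3 FPKM), ENSMUST00000046770 (r = 0.86, 43.1 to 68.4 FPKM) and ENSMUST00000030127 (r = 0.86, 16.3 to 34.0 FPKM). Without mouse 3988 their r was 0.85, 0.87, 0.82 and 0.84. Gene names were not paired with these identifiers here. The r of a contractile member with the mean of the other 7 ran from 0.33 (Smtn) through 0.67 (Acta2) and 0.72 (Tagln) to 0.74 (Des). These means, like that of the 8, were of unscaled log2 values, so transcripts varying more between mice, Smtn above all, weighed more. Over the 15 mice Des had its highest r with Smtn (0.71), against 0.26 (Lmod1) to 0.53 (Tagln) with the others.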

How the data were processed

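Total RNA of the abdominal aorta was depleted of rRNA and sequenced, 1 library per mouse. The authors aligned reads to GRCm38/mm10 with HISAT2 and quantified transcripts with StringTie, and deposited FPKM per transcript in 1 file per mouse. The submitters' processing notes also name limma. FPKM values are scaled to the library, so depth cannot be recovered and no counting interval is given.

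The 9 transcripts, lists and tests were chosen with earlier results of these data known. Values were taken as log2(FPKM + 1). Transcripts with at least 1 FPKM in at least 5 of the 10 mice compared were fitted with limma 3.58.1 (lmFit, eBayes with trend; R 4.3.3), with Benjamini-Hochberg adjustment over all transcripts tested. For comparisons with AngII + QDG mice, only Ensembl transcripts in both lists entered. The authors called transcripts with DESeq at a fold of 2 and p below 0.05. That rule was kept as a call here, with the unadjusted p of limma. Single transcripts and log2 ratios were tested with 2-sided exact permutation tests, and relations over mice with 100000 permutations (scipy 1.17.1). All 9 transcripts are named, with the 4 others most like the contractile mean. Alternatives were a pseudocount of 0.1, no filter, a stricter filter, 1 fit of all 15 mice, other scalings, and leaving out each mouse. Other contraction genes and markers of other cell types were not analysed here, because the identifiers were not paired with symbols. The symbols of the 9 transcripts came with their definition, and gene positions are those of RefSeq for GRCm38.p6.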

Additional observations from a re-analysis of the deposited data

Results flagged for a closer look

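In 6 of the 39 groups of 5 mice looked at, 1 mouse stood apart from the others of its group by Dixon's criterion (critical value 0.71), where chance at 1 in 20 would give 1.95 in independent groups. These groups are not independent, since ratios share transcripts and mice recur, and FPKM was taken on its linear scale, so the counts cannot be compared. AngII mouse 3988 had 3128 FPKM of Acta2 against 1281 to 1816 FPKM in the other 4 AngII mice, just past the criterion, and 46.0 FPKM of Myh11 against 18.5 to 24.1 FPKM. Control mouse 3994 had 256 FPKM of Des against 55.7 to 93.7 FPKM. AngII + QDG mouse 3982 had 15.8 FPKM of Smtn against 1.40 to 4.82 FPKM. Control mouse 3971 had 37.6 FPKM of Vim against 257 to 341 FPKM, and its log2 ratio of Vim to Acta2 was -5.11 against -2.94 to -2.33 in the other Control mice. What sets these animals apart was not tested.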

How the results depend on the processing

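No paired analysis was possible because each mouse number belongs to 1 group only. In every setting tried no transcript of the 9 was called at a fold of 2 with p below 0.05, or at an adjusted p below 0.05. Of 168 single-transcript differences under another pseudocount, filter, scaling or joint fit, 166 kept their direction and side of the threshold for adjusted p, although sizes moved. With a pseudocount of 0.1 Smtn stood at 0.81, 0.61 and 1.42 in AngII vs. Control, AngII + QDG vs. AngII and AngII + QDG vs. Control. The other 2 changed sign when libraries were scaled by the 75th percentile: Lmod1 in AngII + QDG vs. AngII was -0.10 and Mylk in AngII + QDG vs. Control -0.049. That scaling moved the median of all transcripts in AngII + QDG vs. AngII to -0.12 and that of the 9 to -0.51, so that the 9 lay at -0.39 relative to it. The count at an unadjusted p below 0.05 in AngII + QDG vs. Control became 1 (Acta2) with a pseudocount of 0.1, with no filter or with that scaling.

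Leaving out 1 mouse turned 21 of 270 differences. In AngII vs. Control the ranges were -0.15 to 0.17 (Acta2), -0.15 to 0.16 (Myh11), -0.010 to 0.34 (Tagln), -0.19 to 0.43 (Des), -0.075 to 0.63 (Mylk), -0.0053 to 0.88 (Smtn), -0.32 to 0.0079 (Lmod1), 0.24 to 0.64 (Cnn1) and 0.12 to 1.05 (Vim). In AngII + QDG vs. AngII they were -0.031 to 0.73 (Smtn), -0.15 to 0.18 (Lmod1), -0.53 to -0.050 (Mylk), -0.52 to -0.12 (Des) and -0.63 to -0.019 (Vim), and in AngII + QDG vs. Control -0.48 to 0.068 (Des), -0.42 to 0.36 (Mylk), -0.17 to 0.62 (Vim), 0.32 to 1.29 (Smtn), -0.23 to -0.051 (Lmod1), -0.28 to -0.12 (Tagln), -0.29 to -0.14 (Cnn1) and -0.58 to -0.27 (Myh11). The count at an unadjusted p below 0.05 ran from 0 to 1 in AngII vs. Control (1, Cnn1, without mouse 3986), 0 to 3 in AngII + QDG vs. AngII (3, adding Tagln and Vim, without 4048, and 0 without 3982 or 3984) and 0 to 2 in AngII + QDG vs. Control (1, Acta2, without 4000, and 2, adding Myh11, without 3971).

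For log2 ratios to Acta2, leaving out 1 mouse gave, in the order AngII vs. Control, AngII + QDG vs. AngII and AngII + QDG vs. Control, 0.16 to 0.89, -0.11 to 0.39 and 0.28 to 0.98 for Vim (exact permutation p = 0.0397 without 4000 and 0.0476 without 4086 in the last, unadjusted). They gave -0.095 to 0.12, -0.22 to 0.048 and -0.17 to 0.055 for Myh11, 0.35 to 0.48, -0.35 to -0.18 and 0.067 to 0.24 for Cnn1, and -0.24 to 0.30, -0.11 to 0.28 and -0.18 to 0.35 for Des. With Tagln as the denominator, 3 changed sign: Myh11 in AngII vs. Control (-0.14), and Cnn1 (-0.0046) and Des (-0.10) in AngII + QDG vs. Control. Without the 2 mice farthest from the median of Acta2, r with Acta2 became 0.59 for Myh11, 0.58 for Cnn1, 0.50 for Lmod1 and -0.12 for Smtn, and without mouse 3988 it was 0.57 for Lmod1. The cause of these changes was not tested. With 5 mice a group, intervals of Smtn, Vim and Mylk leave room for large differences, and FPKM does not tell which low Smtn values rest on few reads.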
